A study of Mus musculus with 18 samples.

Results

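The genes described here are the 10 DNA replication licensing genes Mcm2, Mcm3, Mcm4, Mcm5, Mcm6, Mcm7, Mcm10, Cdc6, Cdt1 and Gmnn. They were chosen by symbol, each symbol mapped to exactly 1 identifier of the count table, and they are 10 of 51467 genes in the table and 10 of the 12705 genes that passed the filter on low counts. Polysome profiling was carried out on mouse embryonic stem cells (ESCs) of the V6.5 line, grown with serum, LIF and the 2i inhibitors. The cells were wild-type (WT) or carried a knockout of Ddx6 (Ddx6 KO). DDX6 is an RNA helicase known for translational repression and mRNA decay. Cycloheximide (100 ug/ml for 2 minutes) held the ribosomes in place, and each of 3 sucrose gradients per genotype gave a monosome, a low polysome (2 to 4 ribosomes) and a high polysome (4 or more ribosomes) library, so there were 18 libraries in 6 groups of 3. The KO lines were made with CRISPR-Cas9, and KO gradient 1 came from clone 1 while KO gradients 2 and 3 came from clone 2, so clone 1 had a single gradient. Nothing in the sources used here says that the gradients of a genotype came from separate cultures, so p-values measure the spread between these libraries, which may be technical.

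Licensing is the loading of the replicative helicase onto origins before S phase. The origin recognition complex binds the origin, CDC6 and CDT1 load double hexamers of MCM2 to MCM7, and the loaded helicase stays inactive until firing factors such as MCM10 switch it on. Geminin, the product of Gmnn, binds CDT1 and blocks new loading once S phase has begun. ESCs are known for short gap phases and abundant MCM proteins, and many genes of this set are known targets of the E2F transcription factors, which bind GC-rich sites near the start of S-phase genes.

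The promoters were read first because the set is known as an E2F group. The RefSeq promoter table (GRCm38.p6, 250 bases before the start to 50 after) held 8 of the 10 genes, with 2 promoters for Mcm7. Mcm4 and Gmnn had no entry. An 8-base E2F motif was searched on both strands in the 4 forms TTTCCCGC, TTTGGCGC, TTTCGCGC and TTTGCCGC. At least 1 form was found for 6 of the 8 genes, namely Mcm3, Mcm5, Mcm6, Mcm7, Cdc6 and Cdt1. Counted by promoter it was found in 6 of 9, against 2.26% of all 32851 promoters in the table. Such a match is a description of letters and not a bound site. The promoters of Mcm5, Mcm6 and Cdc6 are shown because they hold, in turn, 2 overlapping matches, 3 matches and 1 match, with the matched letters in capitals. The first is at chr8:75109259-75109558 on the plus strand, the second at chr1:128359656-128359955 on the minus strand and the third at chr11:98907901-98908200 on the plus strand.
Mcm5: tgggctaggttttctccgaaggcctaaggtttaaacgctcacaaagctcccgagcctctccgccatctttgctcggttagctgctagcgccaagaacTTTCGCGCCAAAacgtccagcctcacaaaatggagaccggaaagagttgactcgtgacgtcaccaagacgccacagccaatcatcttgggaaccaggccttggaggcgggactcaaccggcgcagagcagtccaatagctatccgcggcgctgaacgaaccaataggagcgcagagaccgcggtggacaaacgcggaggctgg
Mcm6: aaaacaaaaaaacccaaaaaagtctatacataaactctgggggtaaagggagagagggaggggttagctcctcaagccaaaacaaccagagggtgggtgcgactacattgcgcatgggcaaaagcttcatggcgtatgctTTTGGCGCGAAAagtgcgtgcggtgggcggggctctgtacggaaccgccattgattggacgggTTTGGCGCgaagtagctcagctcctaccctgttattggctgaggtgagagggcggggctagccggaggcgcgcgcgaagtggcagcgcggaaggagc
Cdc6: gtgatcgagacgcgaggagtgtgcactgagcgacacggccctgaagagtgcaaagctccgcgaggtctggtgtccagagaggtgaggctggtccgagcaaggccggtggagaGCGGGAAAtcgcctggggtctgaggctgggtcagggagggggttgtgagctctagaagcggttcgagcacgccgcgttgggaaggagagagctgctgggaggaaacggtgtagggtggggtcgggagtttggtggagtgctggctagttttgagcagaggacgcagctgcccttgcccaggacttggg
Each sequence reads in the direction of its gene, and positions count from the RefSeq transcription start. In Mcm5, TTTCGCGC began at position -153 and TTTGGCGC, on the opposite strand, at -149, so the matches overlap. Mcm6 had such an overlapping pair at -110 and -106 and a further TTTGGCGC at -47. The Cdc6 match was TTTCCCGC on the opposite strand, at -138. The count table starts Cdc6 at 98907801, ahead of this window, so by that annotation the match lies within the gene. None of these letters was in the windows of Mcm2 and Mcm10.

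Mcm7 (chromosome 5, 138164583 to 138172422, minus strand) also carries 3 miRNA genes in an intron, the cluster of miR-106b, miR-93 and miR-25. Their mature sequences are shown because 2 of them share a seed that lies close to that of miR-294-3p, a member of the ESCC family (the ESC-enriched cell cycle miRNAs), which is encoded at chr7:3220691-3220712. The 3 mature miRNAs lie on the minus strand at chr5:138165787-138165807, chr5:138165574-138165596 and chr5:138165332-138165353 (GRCm38.p6, RefSeq), and bases 2 to 8, the seed, are in capitals.
miR-106b-5p: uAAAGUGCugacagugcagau
miR-93-5p: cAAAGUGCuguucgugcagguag
miR-25-3p: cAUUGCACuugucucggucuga
miR-294-3p: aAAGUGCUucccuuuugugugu
The seed of miR-106b-5p and miR-93-5p was AAAGUGC, that of miR-294-3p was AAGUGCU and that of miR-25-3p was AUUGCAC. None of the 10 licensing genes had the ESCC 8mer site AGCACTTA in an annotated 3′ UTR, against 3.77% of 11750 genes, and Cdc6 alone had the 7mer AGCACTT, against 18.5%. The site GCACTTT, which pairs with the seed of miR-106b and miR-93, was found in Mcm3 and Mcm7, against 15.2% of genes, and Mcm3 alone had the 8mer GCACTTTA, against 4.63%. Sites for miR-25 were in none of the 10, against 7.74% of genes for the 7mer GTGCAAT. The 3 sites are given with their flanks, the pairing letters in capitals.
Cdc6: ctgtgatcccAGCACTTgggaaatagag
Mcm3: ccacccccagGCACTTTagtccaggaag
Mcm7: ctcccatgctGCACTTTtttattctgcc
A site is a match of letters, and no miRNA level was measured.

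Depth and labels were examined before the results. Total gene counts ran from 2543617 to 11474550 per library, with the WT monosome libraries the shallowest. The lowest count of any licensing gene in any library was 197, for Cdc6 in WT monosome 1, so none was near the detection limit. Ddx6 itself was at 143 to 212 CPM (counts scaled to library size by TMM) in the 9 WT libraries, at 55.3 to 82.7 CPM in the 3 clone 1 libraries and at 9.68 to 26.7 CPM in the 6 clone 2 libraries. A 3′ end tag need not lie in the edited part, so this level does not test the loss of the protein. All 10 naive ESC markers passed the filter and summed to 2980 to 6650 CPM in WT and 3080 to 4930 CPM in KO, while 2 of 8 fibroblast markers and 1 of 8 extraembryonic and endoderm markers passed it, with sums of at most 11.2 and 16 CPM in any library. Col3a1 and the primed marker Fgf5 were at 0 throughout. Of 6 primed epiblast markers 4 passed, and the 6 summed to 134 to 213 CPM in WT and 49.5 to 124 CPM in KO. Of the low polysome libraries, WT gradient 3 and KO gradient 2 stood apart. Their deviations from the group means had the largest SDs of all libraries (0.346 and 0.314 on the log2 scale), though WT monosome 1 was close at 0.309. The 2 moved together, with r = 0.54 over the genes tested. The high polysome library of KO gradient 3 also moved with them, with r = 0.42 for WT gradient 3 and 0.53 for KO gradient 2. That library enters the translation level, for which fits without KO gradient 3 are given. Results that rest on the 2 low polysome libraries are given with and without them.

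Levels are given as CPM within a fraction. Each QuantSeq read marks a transcript's 3′ end, so a level is not divided by length, and it is relative to the other mRNAs of the same fraction. In WT all 6 helicase subunits had their lowest mean in the low polysome. Mcm5 (chromosome 8, 75109569 to 75128439), which sits in the MCM2 to MCM7 ring, was at 280, 287 and 275 CPM in the WT monosome, 173, 153 and 175 CPM in the low polysome and 293, 270 and 303 CPM in the high polysome for gradients 1 to 3. Its low polysome values lay below all others, and its monosome and high polysome values overlapped. Mcm6 (chromosome 1, 128331590 to 128359664) was at 164, 170 and 179 CPM in the WT monosome, 129, 137 and 124 CPM in the low polysome and 310, 329 and 336 CPM in the high polysome, with no overlap between the 3 fractions. Cdt1 (chromosome 8, 122568015 to 122573128), which brings the helicase to the origin, was at 544, 541 and 521 CPM in the WT monosome, 228, 189 and 171 CPM in the low polysome and 430, 348 and 386 CPM in the high polysome. A second annotated gene, Gm20388, lies over Cdt1 on the same strand, so the counting could have split or dropped reads there and the Cdt1 level is uncertain.

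Gmnn (chromosome 13, 24751845 to 24761923) had a different profile, with its low polysome level between those of the other fractions. Like Mcm6, it was highest in the high polysome. It was at 115, 120 and 97.4 CPM in the WT monosome, 213, 196 and 147 CPM in the low polysome and 302, 356 and 295 CPM in the high polysome. The level of the loading inhibitor was thus higher in each heavier fraction, without overlap between libraries. The low polysome mean was the lowest of the 3 for 8 of the 10 genes in WT, against 28.0% of all genes, and for 8 of 10 in KO, against 23.2%. Gmnn was an exception in both genotypes, with Mcm10 the other in WT and Mcm6 the other in KO.

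**Figure D1:**
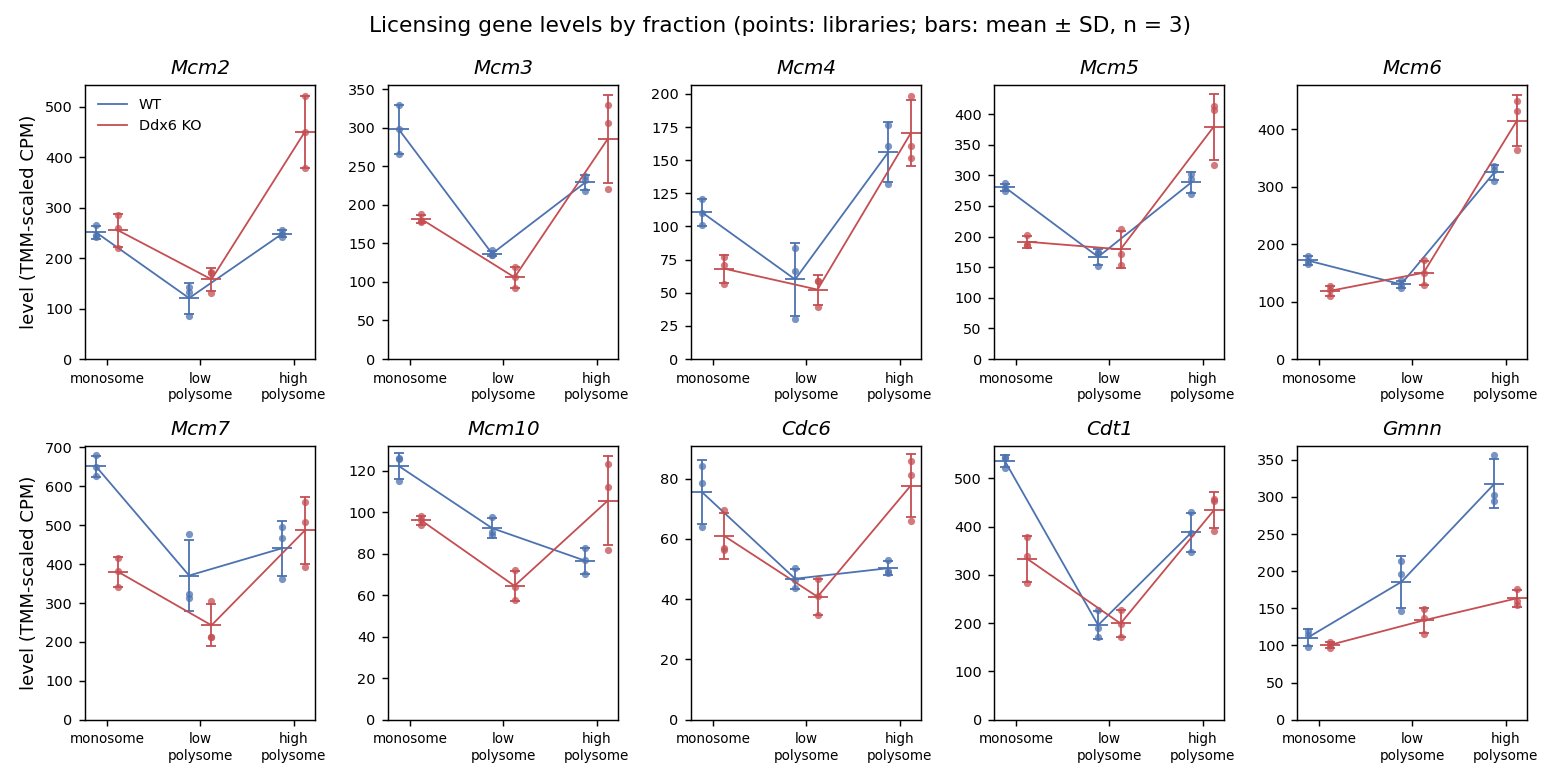
Level of each licensing gene in TMM-scaled CPM (vertical axes, from 0) by gradient fraction, light to heavy, for WT (blue) and Ddx6 KO (red). Points are libraries, bars are the mean ± SD of 3 libraries and lines join the means. Gmnn climbs from a WT mean of 111 CPM in the monosome to 318 CPM in the high polysome, and to only 163 CPM in the KO high polysome.

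The fraction ratios put these profiles to the test within each genotype. In the WT low polysome over monosome comparison, 9 of the 10 genes were lower and 1 was higher, against 22.8% lower and 20.4% higher over all genes (limma, adjusted p under 0.05). The decreases ranged from -0.40 for Mcm6 to -1.46 for Cdt1 (SE 0.14, adjusted p = 7.18e-08), and Gmnn was higher by 0.73 (SE 0.15, adjusted p = 0.000371). Mcm4 and Mcm6 lost the call without WT gradient 3, and Mcm10 without any 1 of the WT gradients. In KO, 6 were lower (20.8% of all genes) and 2, Mcm6 and Gmnn, were higher (20.4%). Both higher calls were lost without KO gradient 3, Mcm6 also without KO gradient 2, WT gradient 1 or WT gradient 2, and Gmnn, Mcm7 and Cdc6 without KO gradient 1. With library size alone, and in the fit of the compared groups only, 6 were lower and 0 higher (Mcm6 adjusted p = 0.0811 and 0.106, Gmnn adjusted p = 0.0688 and 0.0545 in limma). Without the low polysome libraries that stood apart, the WT counts were again 9 and 1, and in KO 6 were lower and 1, Gmnn, was higher. In the WT high polysome over monosome comparison, which is the translation level in WT, 5 genes were lower and 2 were higher, against 32.2% and 28.9% of all genes. Mcm3, Mcm7, Mcm10, Cdc6 and Cdt1 were the lower genes, at -0.37 to -0.68, and Mcm6 (0.92, SE 0.12) and Gmnn (1.52, SE 0.14, adjusted p = 1.62e-08) were the higher ones. Without WT gradient 2 Mcm3, Mcm7 and Cdt1 were no longer called. That left 2 lower and 2 higher, against 27.9% and 23.9% of all genes. Mcm3 also lost its call without WT gradient 1 or KO gradient 3. In the same KO comparison 8 of the 10 were higher (35.0% of all genes), from 0.35 for Cdc6 to 1.80 for Mcm6, and 0 were lower (33.6%) in limma, edgeR and DESeq2 alike. Mcm7 (0.35, adjusted p = 0.0862) and Mcm10 (0.12, adjusted p = 0.455) were the 2 not called, and 0 were lower at an unadjusted p under 0.05. Cdc6 and Cdt1 were not called without KO gradient 2 or KO gradient 3, nor was Cdc6 without WT gradient 1, while Mcm7 was called without KO gradient 1. With library size alone Cdc6 was not called (adjusted p = 0.103 in limma). In the limma fit of the compared groups only, Cdc6 and Cdt1 were not called (adjusted p = 0.114 and 0.0536). Mcm7 was also called without the low polysome libraries that stood apart (0.34, adjusted p = 0.0241).

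The difference between the genotypes was tested directly, as the KO ratio less the WT ratio. For 9 of the 10 genes every KO gradient had a higher translation level than every WT gradient (21.2% of all genes), and for Gmnn every KO gradient was lower (17.8%). With 3 against 3 gradients an exact permutation test cannot go below p = 0.1, so the calls rest on limma. Mcm6 had log2(high polysome / monosome) of 0.91, 0.95 and 0.90 in WT gradients 1 to 3 and 1.73, 1.84 and 1.82 in KO gradients 1 to 3. The genotypes did not overlap, and the KO effect was 0.88 (SE 0.17, adjusted p = 0.00207), a 1.84-fold higher translation level. Mcm3, another ring subunit (chromosome 1, 20802968 to 20820312), had -0.60, -0.36 and -0.16 in WT and 0.23, 0.89 and 0.77 in KO. Its sign differed between the genotypes in every gradient, and its KO effect was 1.003 (SE 0.19, adjusted p = 0.00211). Mcm5 had 0.07, -0.09 and 0.14 in WT and 0.65, 1.15 and 1.13 in KO (KO effect 0.94, SE 0.18, adjusted p = 0.00218).

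Mcm7 had -0.43, -0.84 and -0.46 in WT and -0.09, 0.41 and 0.71 in KO, and its KO effect was 0.92 (SE 0.25, adjusted p = 0.0152). Mcm2 (chromosome 6, 88883474 to 88898780), the subunit that also binds histones, had 0.012, -0.0015 and -0.057 in WT and 0.66, 1.25 and 0.55 in KO (KO effect 0.83, SE 0.23, adjusted p = 0.0191). Mcm4 (chromosome 16, 15623897 to 15637400) had 0.12, 0.80 and 0.54 in WT and 1.42, 1.36 and 1.17 in KO. The groups did not overlap, though the WT gradients were spread widely. In the fit of all libraries, where the low polysome shares in the variance, the KO effect of 0.82 (SE 0.35) missed the threshold (adjusted p = 0.103). In the limma fit of the compared groups only it was 0.82 and passed (adjusted p = 0.00697). Without the low polysome libraries that stood apart, the value for Mcm4 was 0.82 with an adjusted p of 0.00537, and 9 genes were higher and 1 lower. The 6 subunits lay within a narrow band, from 0.82 to 1.003 with a median of 0.90. Over all genes the median was 0.02 and the 90th percentile 0.91.

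Outside the ring, Cdc6 (chromosome 11, 98907801 to 98923936), the ATPase that recruits the helicase, went from -0.67, -0.39 and -0.67 in WT to -0.08, 0.51 and 0.60 in KO (KO effect 0.92, SE 0.20, adjusted p = 0.0046). Its partner Cdt1 went from -0.34, -0.64 and -0.43 to 0.05, 0.68 and 0.43 (0.86, SE 0.19, adjusted p = 0.00525). Mcm10 (chromosome 2, 4989714 to 5012791), which is no ring subunit but acts when the helicase fires, went from -0.71, -0.71 and -0.60 to -0.24, 0.33 and 0.25 (0.79, SE 0.19, adjusted p = 0.00832). Gmnn moved the other way, from 1.39, 1.56 and 1.59 in WT to 0.67, 0.80 and 0.61 in KO. All 3 KO values lay below all 3 WT values, and its KO effect was -0.83 (SE 0.20, adjusted p = 0.00841), a fold of 0.563.

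In all, 8 of the 10 genes rose in translation level, against 10.7% of all genes, and 1 fell, against 7.09%. With scaling by library size alone the counts for the licensing genes were again 8 and 1, while over all genes 936 rose and 1386 fell in place of 1357 and 901, and the median of all genes moved to -0.10. Gradient 1, the one from clone 1, had the lowest KO value for 7 of the 9 genes with higher KO values. The share of all genes with this order was not computed, so it is not shown to be particular to them. For Gmnn the gradient 1 value (0.67) lay between those of gradients 2 and 3 (0.80 and 0.61). Gradient 1 also had the highest residual Ddx6 level, and a link between the 2 was not tested. Clone and gradient cannot be told apart here, since clone 1 had 1 gradient. Without KO gradient 3 the counts were 5 higher and 0 lower, with Mcm7 (0.72, adjusted p = 0.127), Mcm10 (0.71, adjusted p = 0.0797), Cdc6 (0.78, adjusted p = 0.0582) and Gmnn (-0.80, adjusted p = 0.054) no longer past the threshold. Without WT gradient 1 or WT gradient 2 they were 5 higher and 1 lower, with Mcm2, Mcm7 and Mcm10 not called, and without KO gradient 2 Mcm2 was not called (0.62, adjusted p = 0.0957).

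**Figure D2:**
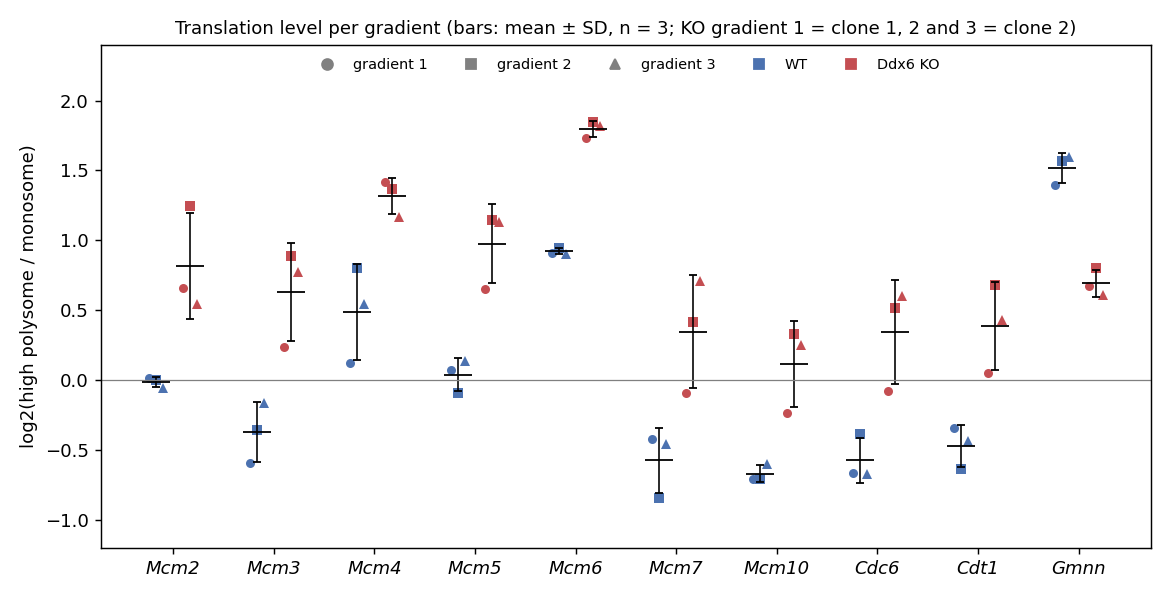
Translation level, log2(high polysome / monosome) from CPM with a pseudocount of 0.5, for each licensing gene in each WT (blue) and Ddx6 KO (red) gradient, with the mean ± SD of 3 gradients in black. For 9 genes all KO points lie above all WT points, and for Gmnn all KO points lie below them.

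Coding length moved with this result. Over 11778 genes the KO effect on translation level rose with coding length, and 9 of the licensing genes have coding sequences of 1671 to 2712 nt, above the median of 1371 nt, while Gmnn has one of 618 nt, at percentile 14.2 of all genes. The trend over all genes stood at 0.18 to 0.40 at the lengths of the 9 and at -0.40 at that of Gmnn. With the trend subtracted, 3 genes were called higher (Mcm5 0.62, adjusted p = 0.0455; Cdt1 0.68, adjusted p = 0.0406; Cdc6 0.72, adjusted p = 0.0402), against 3.65% of all genes, and 0 lower, against 2.27%. What part coding length has in the result was not tested further. The other 7 kept their sign but missed the threshold, among them Mcm3 (0.65, adjusted p = 0.0501), Mcm6 (0.52, adjusted p = 0.0717) and Gmnn (-0.43, adjusted p = 0.202).

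**Figure D3:**
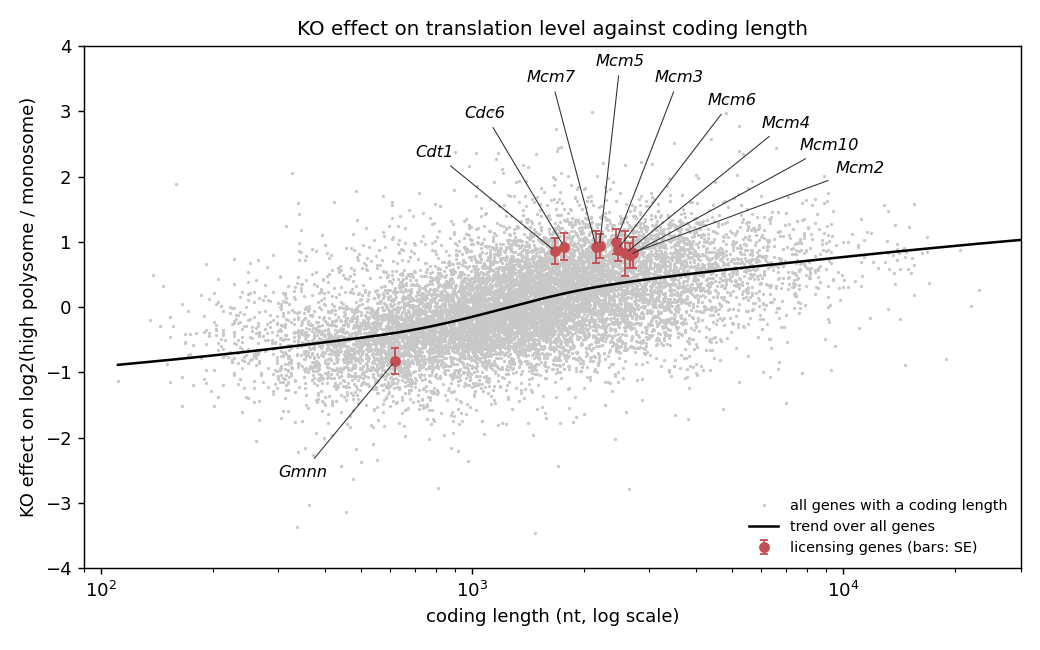
KO effect on log2(high polysome / monosome) (vertical axis) against coding length in nt (log axis) for genes with a coding length (grey), with the trend over all of them (black) and the licensing genes with their SE (red). Beyond the axes lie 4 genes. The 9 longer licensing genes sit above the trend and Gmnn sits below it.

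The steps between these fractions gave fewer calls. For the low polysome over the monosome, 3 genes were higher (2.31% of all genes) and 0 were lower (2.39%), namely Mcm6 (0.74, SE 0.17, adjusted p = 0.0208), Cdt1 (0.72, SE 0.20, adjusted p = 0.0399) and Mcm5 (0.64, SE 0.18, adjusted p = 0.0482). For 4 genes the KO gradients lay above every WT gradient (12.8% of all genes) and for 1, Gmnn, below (12%). Without the low polysome libraries that stood apart only Mcm6 of the 10 was called. None of the 10 was called in any fit that left out a single WT gradient, KO gradient 2 or KO gradient 3. Over all genes those fits called 44, 85, 405, 336 and 29 in turn, in place of 598. Scaling by library size alone gave 229 higher and 494 lower over all genes in place of 294 and 304, and 2 licensing genes in place of 3, with Mcm5 lost (0.57, adjusted p = 0.0505). For the high polysome over the low polysome, 2 genes were higher (3.39% of all genes) and 0 were lower (1.03%). These were Mcm10 (0.97, SE 0.19, adjusted p = 0.00832) and Cdc6 (0.82, SE 0.20, adjusted p = 0.0252). For 5 genes the KO gradients lay above every WT gradient in this ratio (17.7%) and for 0 below (12.6%). Mcm3 missed the threshold (0.67, adjusted p = 0.0512) and passed it with the gradient as a replicate block (0.67, adjusted p = 0.0416). Without WT gradient 1 or 2, without KO gradient 3 and with the length trend removed, 0 of the 10 genes were called. Over all genes tested these fits called 41, 70, 0 and 54 in turn, in place of 562. Without WT gradient 3 or KO gradient 2 only Mcm10 of the 10 was called, against 210 and 258 of all genes. Without the low polysome libraries that stood apart, 3 were called, with Mcm3 at 0.74 (adjusted p = 0.0483). Over all genes library size alone gave 322 higher and 212 lower in place of 431 and 131.

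KO and WT were then compared within each fraction. These comparisons share their libraries with the ratios above and are not independent of them. Since whole cultures were lysed, fewer cells in a given cell cycle phase and less mRNA per cell cannot be told apart in any of these levels. In the monosome 7 of the 10 genes were lower in KO (20.1% of all genes) and 0 were higher (18.6%). Mcm7 fell from 627, 649 and 680 CPM in WT to 417, 382 and 341 CPM in KO (log2 change -0.78, SE 0.18, adjusted p = 0.00152). Mcm3 fell from 330, 298 and 265 CPM to 188, 178 and 179 CPM (-0.71, SE 0.14, adjusted p = 0.000411), and Cdt1 fell to 378, 283 and 339 CPM (-0.70, SE 0.14, adjusted p = 0.000494). In each of the 3 the KO libraries lay below all WT libraries. Mcm4, Mcm5, Mcm6 and Mcm10 were also lower, by -0.35 to -0.70. Mcm10 was called only in the full set and without KO gradient 1 among the fits that left out a gradient. Mcm4 lost its call in 3 of those 6 fits, which left out WT gradient 1, KO gradient 1 and KO gradient 3. With library size alone 5 genes were lower, Mcm4 (adjusted p = 0.0649) and Mcm10 (adjusted p = 0.11) being lost, and over all genes 2672 were higher and 2142 lower in place of 2357 and 2548. Both calls were also lost without the filter on low counts.

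In the high polysome 5 genes were higher in KO (25.3% of all genes) and 1 was lower (21.1%). Mcm2 was at 248, 242 and 256 CPM in WT and 450, 521 and 379 CPM in KO, a log2 change of 0.84 (SE 0.16, adjusted p = 0.000293). Cdc6 was at 49.3, 48.7 and 52.8 CPM in WT and 65.8, 81.3 and 85.9 CPM in KO (0.62, SE 0.14, adjusted p = 0.00115). For both genes all KO libraries lay above all WT libraries. Mcm5, Mcm6 and Mcm10 rose by 0.35 to 0.44. These 3 calls were lost in each fit that left out WT gradient 1, KO gradient 2 or KO gradient 3, which had 2 higher and 1 lower. Mcm5 and Mcm6 were also lost without WT gradient 2 (adjusted p = 0.0925 and 0.0637), and Mcm6 with the size factors of DESeq2 (adjusted p = 0.059). The lower gene was Gmnn, which went from 302, 356 and 295 CPM to 155, 176 and 160 CPM (-0.96, SE 0.14, adjusted p = 1.19e-05) and kept its call in every alternative fit run. In the low polysome 4 genes were lower (24.3% of all genes), Mcm3, Mcm7, Mcm10 and Gmnn, and 1, Mcm2, was higher (23.4%). The Mcm2 value (0.41, SE 0.17, adjusted p = 0.0485) was 0.17 (adjusted p = 0.399) without WT gradient 3, where Mcm2 was at 85.5 CPM against 144 and 133 CPM in WT gradients 1 and 2, and it missed the threshold in edgeR and DESeq2. Mcm10 kept its call in every alternative fit run, while Mcm3, Mcm7 and Gmnn each lost theirs without at least 1 gradient. Without the low polysome libraries that stood apart 4 genes were lower and 0 higher.

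The higher ratios were made up differently from gene to gene. For 6 of the 9 genes with higher KO ratios (Mcm3, Mcm4, Mcm5, Mcm6, Mcm7 and Cdt1) the fall in the monosome was larger than the change in the high polysome. For 3 (Mcm2, Mcm10 and Cdc6) the high polysome change was the larger, and the Mcm2 value in the monosome was 0.01 (SE 0.17, adjusted p = 0.967). Gmnn had its largest change in the high polysome, with a monosome value of -0.13 (SE 0.15, adjusted p = 0.527). Some of these orders rest on small differences. Mcm5 was at -0.55 in the monosome and 0.39 in the high polysome, and Mcm6 at -0.53 and 0.35, with SEs of 0.12 to 0.13. Neither the difference in size between the fractions of a gene nor the difference between these genes was tested. The share of all genes with each order was not computed.

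**Figure D4:**
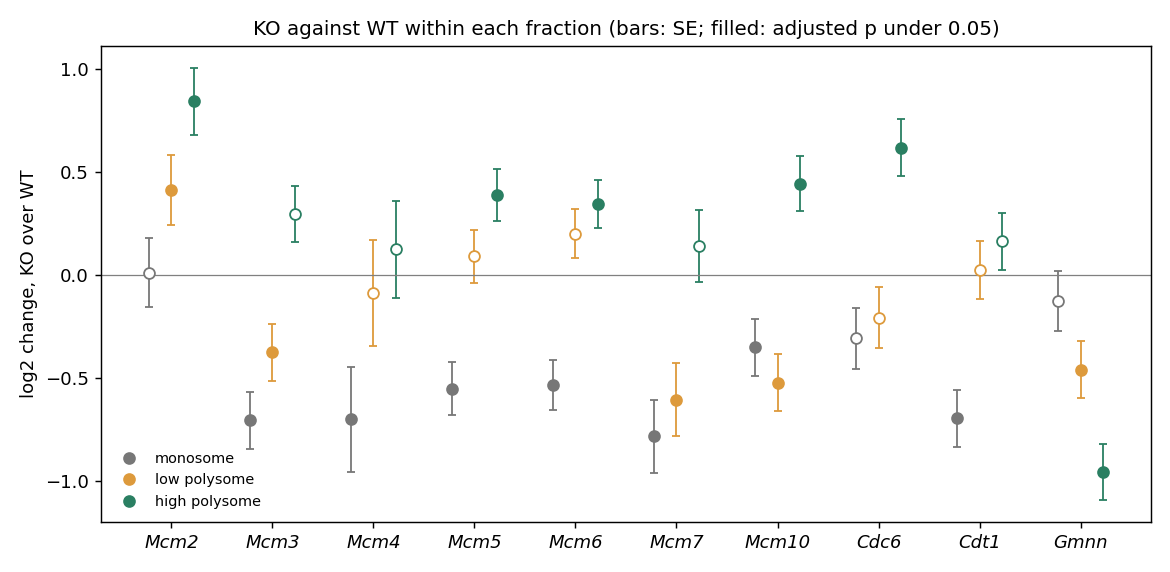
log2 change of KO over WT (vertical axis) for each licensing gene within the light to heavy fractions, monosome in grey, low polysome in orange and high polysome in green. Bars are SE and filled points have an adjusted p under 0.05. Grey points lie between 0.01 and -0.78, and green points lie above 0 except for Gmnn at -0.96.

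Averaged over the 3 fractions with equal weight, the calls were mixed. In KO 1 gene was higher (30.6% of all genes) and 3 were lower (31.5%). Mcm2 rose by 0.42 (SE 0.10, adjusted p = 0.000706), while Gmnn (-0.51, SE 0.08, adjusted p = 1.57e-05), Mcm7 (-0.42, SE 0.10, adjusted p = 0.00133) and Mcm3 (-0.26, SE 0.08, adjusted p = 0.0071) fell. The median was -0.16 over the 10 genes and -0.02 over all genes. Cdt1 (-0.17, adjusted p = 0.0709) was also called lower by DESeq2, with its size factors and with library size alone, which made 4 lower. Without the low polysome libraries that stood apart, 1 was higher and 5 were lower, Mcm4 and Cdt1 being added, while 4025 of 12642 genes were lower. Mcm4 was also called lower without WT gradient 3, and Mcm10 without KO gradient 2. This average weights fractions equally and is not the total mRNA of the cell.

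CDT1 and geminin act as a pair, so their mRNAs were set against each other in each library. The ratio of Cdt1 to Gmnn CPM was 1.42, 0.977 and 1.31 in the WT high polysome and 2.52, 2.57 and 2.86 in the KO high polysome, with no overlap. In the monosome it was 4.75, 4.51 and 5.35 in WT and 3.90, 2.80 and 3.24 in KO, so the order of the genotypes was reversed there. In the low polysome it was 1.07, 0.965 and 1.16 in WT and 1.25, 1.98 and 1.33 in KO. Taken singly, Cdt1 in the high polysome was not called in KO over WT (0.16, SE 0.14, adjusted p = 0.339 in limma), while Gmnn was at -0.96. In the monosome the values were -0.70 for Cdt1 and -0.13 for Gmnn. The share of other gene pairs without overlap was not computed. Both mRNAs were measured by 3′ tags, so the ratios compare libraries and not amounts of the 2 mRNAs.

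Across the 18 libraries the helicase subunits were correlated to differing degrees. Pearson's r of log2 CPM was 0.345 to 0.882 over the 15 pairs of subunits, with a median of 0.771, and -0.0853 to 0.578 between Gmnn and a subunit. Of the 6, Mcm5 was closest to their mean (r = 0.966) and Mcm7 farthest (r = 0.731), each being part of that mean. These libraries fall into 6 groups that share gradients, so the values are descriptions, and no r was computed for random pairs of genes. Among genes outside the set with a mean of at least 10 CPM, the 5 most like the subunit mean were Racgap1 (r = 0.954), Noc4l (0.953), Abcf2 (0.946), Adsl (0.945) and Ik (0.945). Their KO effects on translation level were 0.37 to 0.99, and Noc4l, Abcf2 and Ik passed the threshold. The 5 were chosen on these same libraries, so KO effects like those of the subunits partly follow from the choice. Without KO gradient 1, 0 of the 5 were still among the first 5, and 2 were without the low polysome libraries that stood apart.

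The other replication genes were read as lists, beside the 10.7% of all genes that rose in translation level and the 7.09% that fell. Of the 6 origin recognition complex genes, which mark the origin, 0 rose in translation level and 1 fell, Orc4 (-0.84, SE 0.27, adjusted p = 0.0393), while Orc6 had a value of -0.67 (adjusted p = 0.187). Orc4 lost its call in 4 of the 6 fits without 1 gradient. The list median was -0.04. Of 11 helicase activation and firing genes 3 rose, and the list median was -0.05. Ticrr, which helps to activate the loaded helicase, rose by 0.88 (SE 0.24, adjusted p = 0.0155) and Gins3, part of the active helicase, by 0.73 (SE 0.20, adjusted p = 0.0149), and both lost their calls without WT gradient 1 or KO gradient 3. None of the 3 MCM relatives and partners was called, with Mcm9 at 0.85 (adjusted p = 0.0615) and Mcmbp at 0.42 (adjusted p = 0.129). Of 24 replisome genes 3 rose and 1 fell, with a median of 0.06. Timeless, of the fork protection complex, rose by 1.10 (SE 0.21, adjusted p = 0.00218) and Pole3, a small subunit of polymerase epsilon, fell by 0.80 (SE 0.16, adjusted p = 0.0032), and neither was past the threshold with the length trend removed. No difference between the lists and the ring subunits was tested.

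Genes that control licensing were set against the same shares. Of 7 licensing turnover genes 2 rose in translation level, Ddb1 (1.31, SE 0.24, adjusted p = 0.00136) and Dtl (0.72, SE 0.21, adjusted p = 0.024), which are both parts of the ubiquitin ligase that degrades CDT1. Dtl lost its call in 4 of the 6 fits without 1 gradient, and Ddb1 in none. Of 11 E2F and RB genes 2 rose, Rbl2 (1.63, SE 0.30, adjusted p = 0.00136), an RB relative that represses E2F targets, and E2f2 (1.02, SE 0.23, adjusted p = 0.00488), which was not called without WT gradient 2. Averaged over fractions, where 31.5% of all genes were lower and 30.6% higher, genes lower in KO were 3 of 6 origin recognition genes (Orc1 -0.77 and Orc3 -0.55 among them), 7 of 11 firing genes (Topbp1 -0.75 and Ticrr -0.58), 14 of 24 replisome genes (Tipin -0.74 and Pole -0.48), 3 of 7 turnover genes (Cks1b -0.65), 5 of 11 E2F and RB genes (E2f1 -0.78 and E2f2 -0.64) and 1 of 3 MCM relatives (Mcm8 -0.64). Higher were 1 origin recognition gene, 2 replisome genes, 2 turnover genes (Cul4a 0.49) and 1 E2F and RB gene, and 0 of the firing genes and MCM relatives. Each gene named had an adjusted p of at most 0.000118.

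**Figure D5:**
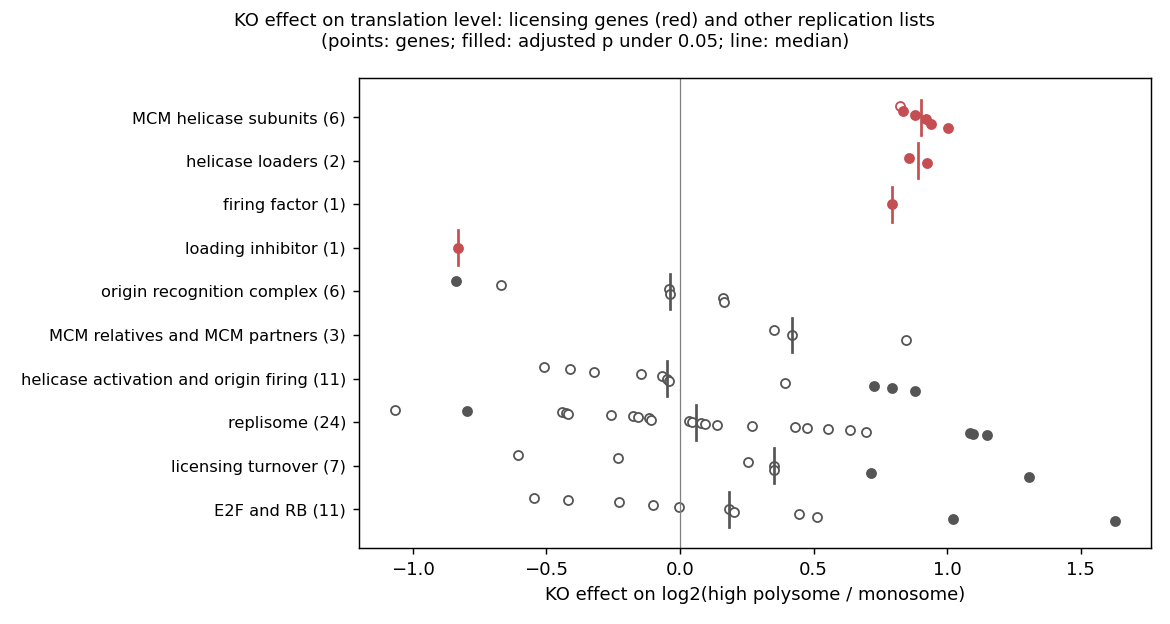
KO effect on log2(high polysome / monosome) (horizontal axis) for the licensing genes (red) and 6 other replication lists (dark grey), 1 point per gene, filled where the adjusted p is under 0.05, with the list median as a line. The red ring subunits lie between 0.82 and 1.003 with a median of 0.90, and the medians of the other lists lie between -0.05 and 0.42. Single genes of those lists lie within or above the range of the subunits, up to Rbl2 at 1.63.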

How the data were processed

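The 10 members, the other gene lists and the tests were chosen with earlier results of these data known. The authors trimmed reads with cutadapt 1.14, aligned them with STAR 2.5.3a to mm10, kept unique alignments and counted reads per gene with featureCounts 1.5.3, and deposited raw counts per gene and library. Libraries were made with the QuantSeq 3′ FWD kit, and no molecular identifiers are named, so PCR copies may be among the counts. Reads of 92 spike-in sequences entered neither the totals nor the tests. Symbols came from a table for 51274 of 51467 identifiers, and coding lengths, 3′ UTRs and introns from Gencode M21, on the same assembly.

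Genes with at least 3 CPM in at least 3 libraries were kept, and TMM factors came from edgeR 4.0.16. A limma 3.58.1 model on voom weights, run in R 4.3.3, gave each of the 6 groups a mean, with the 18 libraries sharing one variance per gene. The KO effect on a fraction ratio was the interaction term, as in the study's methods. Tests were two-sided, p-values were adjusted by Benjamini-Hochberg across the 12705 genes kept, and calls were made under 0.05. Per-gradient ratios used a pseudocount of 0.5 CPM. The length trend was a lowess of the fitted change on log10 coding length. Fractions of 1 gradient share a lysate and so are paired, and their deviations correlated at -0.17 to 0.46. Alternatives were DESeq2 size factors, library size alone, no filter, edgeR quasi-likelihood, DESeq2 1.42.0, compared groups only, a replicate block, each gradient left out, the length trend removed, a pseudocount of 5 CPM, and, chosen after the data had been seen, 2 low polysome libraries left out. Genes named from other lists were the 2 with the smallest p for the KO effect on translation level and the 2 for KO over WT across fractions.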

Additional observations from a re-analysis of the deposited data

Results flagged for a closer look

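The change in a fraction ratio between the genotypes passed the limma test of the interaction itself for 14 gene and ratio pairs. For the high polysome over the monosome these were Mcm2 (0.83), Mcm3 (1.003), Mcm5 (0.94), Mcm6 (0.88), Mcm7 (0.92), Mcm10 (0.79), Cdc6 (0.92), Cdt1 (0.86) and Gmnn (-0.83). For the low polysome over the monosome they were Mcm5 (0.64), Mcm6 (0.74) and Cdt1 (0.72), and for the high over the low polysome Mcm10 (0.97) and Cdc6 (0.82). All values are log2 changes, KO less WT, and the causes were not tested.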

How the results depend on the processing

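No licensing gene that was called changed sign under any alternative. Over 11 comparisons, 1560 gene values were recomputed, of which 1405 stayed on the same side of the threshold, 22 gained a call and 133 lost one. The KO effect on translation level was past the threshold in 15 of 15 alternatives for Mcm5 and Cdt1, in 14 for Mcm3, Mcm6 and Cdc6, in 13 for Gmnn, in 11 for Mcm2, Mcm7 and Mcm10, and in 2 for Mcm4. With the length trend removed 3 genes were called for the high polysome over the monosome, 0 for the low polysome over the monosome and 0 for the high over the low polysome. Over all genes tested the same fits called 697, 129 and 54. Without a filter on low counts the KO effect was called for 1 gene in the low polysome over the monosome and 1 in the high over the low polysome, and KO over WT in the low polysome for 3. Fits of the compared groups alone gave 1 gene for the low polysome over the monosome and 2 for the low polysome, and leaving out the 2 low polysome libraries gave 1 for the low polysome over the monosome. The cause of these differences between fits was not tested.

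Leaving out each gradient in turn gave 4 to 7 genes called for the WT high polysome over the monosome, 6 to 9 for the same KO ratio, 7 to 10 for the WT low polysome over the monosome and 5 to 8 for the same KO ratio. For the KO effect it gave 5 to 9 for the high polysome over the monosome, 0 to 3 for the low polysome over the monosome and 0 to 3 for the high over the low polysome. For KO over WT it gave 5 to 7 in the monosome, 3 to 4 in the low polysome, 3 to 7 in the high polysome and 4 to 5 over all fractions. For the KO effect the same fits called 748 to 2618, 29 to 819 and 0 to 807 of all genes, in the same order of ratios.

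The replicate block was the gradient for the fraction ratios. For KO over WT within or across fractions it was the replicate number, which ties WT and KO gradients by number alone. With these blocks, 3 genes in place of 2 were called for the KO effect on the high over the low polysome, Mcm3 being added. No other call of a licensing gene changed. WT and KO libraries of 1 number share only that number, and their deviations correlated at -0.48 to 0.24. A pseudocount of 5 CPM moved no per-gradient ratio difference beyond its spread. Clone 1 had 1 gradient. WT monosome 1 held the lowest count of 7 of the 10 genes, down to 197 for Cdc6, while the lowest counts of Mcm3 (701) and Cdt1 (1305) were in KO low polysome 1 and that of Mcm4 (238) in WT low polysome 3.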
